A study of Homo sapiens with 9 samples.

Results

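The data compared here were 2 lists of called RBPJ peaks from HEK293T cells, an established human line of embryonic kidney origin. Both libraries carry the genotype label FBXO42 KO and both were made with an antibody to RBPJ. The titles set them apart. The title of the former names FBXO42KO and RBPJ, and its list, the FBXO42 KO list, held 36877 peaks. The title of the latter names RBPJ alone, and its list, the titled RBPJ list, held 19912 peaks. Members were all peaks of both lists on chromosomes 1 to 22 and X, which came to 56789 of the 174109 peaks in the 6 peak lists of the series. A peak counted as shared where at least 1 bp of it overlapped a peak of the other list.

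The series holds 9 libraries with 1 per group, so there were no replicates, no difference below was tested between conditions, and all intervals cover counting error only. CUT&Tag uses an antibody to direct a transposase to DNA beside the bound protein, so that sequenced fragments pile up at binding sites. Beside the KO and the titled library, RBPJ was profiled in HEK293T cells labelled wild type for FBXO42 and in FBXO42 KO cells titled RBPJK175R, a form of RBPJ whose name gives arginine in place of a lysine. 3 further HEK293T libraries used control IgG, 1 with a wild-type label and 2 with the KO label, and 2 ATAC-seq libraries, which record open chromatin, came from Jurkat T cell leukaemia cells, wild type and FBXO42 KO. Knockout used lentiviral CRISPR constructs, per the labels' protocols. Whether the KO cells were a clone or a population, how the form of RBPJ named in a title was introduced and which IgG library was the control of which list is not stated in the labels or file contents. The titles of the IgG libraries name FBXO42WT, FBXO42KO and RBPJ, which match titles of RBPJ libraries but do not state the pairing. The labels name no batch. Genotype, the form of RBPJ, the control and any difference in preparation therefore cannot be told apart.

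RBPJ is the DNA-binding factor of the Notch pathway. Without a signal it holds corepressors such as SPEN, TLE proteins and histone deacetylases at its sites. A ligand on a neighbouring cell leads to cleavage of the Notch receptor by ADAM proteases and gamma-secretase, and the freed intracellular domain joins RBPJ with a Mastermind coactivator and switches on targets such as the HES and HEY repressor genes. FBXO42 is an F-box protein, the part of an SCF ubiquitin ligase that selects substrates. RBPJ binds DNA with the core TGGGAA, most often as GTGGGAA.

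Promoter windows of 6 genes are shown because they mark the range of what the lists shared. Each window runs from 250 bases before to 50 bases after the annotated start, is written 5′ to 3′ on the strand of the gene, and comes from RefSeq on GRCh38.p14. Capitals mark TGGGAA on either strand. The windows of HES1 (chr3:194135898-194136197, plus strand) and HES4 (chr1:1000048-1000347, minus strand), Notch targets that encode transcriptional repressors, were covered whole by peaks of both lists. HES5 (chr1:2530214-2530513, minus strand), a Notch target of the same family, had a gene-start peak in neither list. GSK3A (chr19:42242553-42242852, minus strand), the gene of a kinase that acts on glycogen synthase, held the shared gene-start peak with the highest lower fold. CAPN10 (chr2:240586484-240586783, plus strand), a calpain protease gene, was covered by a peak of the KO list alone, and RBL1 (chr20:37095948-37096247, minus strand), a gene of the retinoblastoma family, by a peak of the titled RBPJ list alone.
HES1: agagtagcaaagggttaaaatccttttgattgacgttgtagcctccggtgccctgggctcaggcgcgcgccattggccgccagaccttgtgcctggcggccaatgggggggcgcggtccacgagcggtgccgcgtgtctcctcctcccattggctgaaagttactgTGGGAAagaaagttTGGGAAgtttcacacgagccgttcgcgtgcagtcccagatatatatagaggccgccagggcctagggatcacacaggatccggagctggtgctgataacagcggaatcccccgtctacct
HES4: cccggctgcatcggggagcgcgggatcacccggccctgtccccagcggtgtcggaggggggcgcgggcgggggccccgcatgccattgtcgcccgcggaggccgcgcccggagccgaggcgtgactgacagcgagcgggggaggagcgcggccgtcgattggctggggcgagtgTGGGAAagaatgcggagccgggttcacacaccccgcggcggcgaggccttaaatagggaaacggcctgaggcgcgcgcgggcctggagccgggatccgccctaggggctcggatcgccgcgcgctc
HES5: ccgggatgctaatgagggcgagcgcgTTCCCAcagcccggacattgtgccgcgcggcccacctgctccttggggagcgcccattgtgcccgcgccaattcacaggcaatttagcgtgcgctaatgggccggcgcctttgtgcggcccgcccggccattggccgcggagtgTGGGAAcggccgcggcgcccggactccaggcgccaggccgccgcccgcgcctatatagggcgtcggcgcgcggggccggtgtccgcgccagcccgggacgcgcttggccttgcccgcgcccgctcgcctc
GSK3A: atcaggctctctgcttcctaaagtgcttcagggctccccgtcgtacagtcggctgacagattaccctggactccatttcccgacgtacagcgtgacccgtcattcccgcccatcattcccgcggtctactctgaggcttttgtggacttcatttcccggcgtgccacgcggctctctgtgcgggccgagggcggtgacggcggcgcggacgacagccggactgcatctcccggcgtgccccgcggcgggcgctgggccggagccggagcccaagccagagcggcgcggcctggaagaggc
CAPN10: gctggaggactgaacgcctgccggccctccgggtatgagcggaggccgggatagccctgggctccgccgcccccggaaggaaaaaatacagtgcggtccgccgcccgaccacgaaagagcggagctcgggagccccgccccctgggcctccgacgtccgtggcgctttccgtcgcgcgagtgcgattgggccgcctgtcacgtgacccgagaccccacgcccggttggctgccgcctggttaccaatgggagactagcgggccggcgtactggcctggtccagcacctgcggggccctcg
RBL1: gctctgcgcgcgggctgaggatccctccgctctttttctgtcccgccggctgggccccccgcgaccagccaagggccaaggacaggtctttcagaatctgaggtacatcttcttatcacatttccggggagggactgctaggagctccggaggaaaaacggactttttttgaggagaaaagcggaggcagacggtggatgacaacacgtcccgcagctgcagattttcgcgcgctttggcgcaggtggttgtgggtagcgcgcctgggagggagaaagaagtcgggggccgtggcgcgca
The HES1 window held 2 cores, at 84 and 70 bases before the start, 1 of them in the 7-letter form. HES4 held 1 core of the 7-letter form at 76 bases before the start. HES5 held 2 of the 7-letter form, at 224 and 80 bases before the start. GSK3A, CAPN10 and RBL1 held 0. A core was thus present in a promoter with no peak in either list. The summits of both lists at GSK3A and HES1 lay upstream of the windows, as did the titled RBPJ summit at HES4. These windows therefore do not show the sequence at those summits.

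The KO list was the longer one, and its excess lay among weak peaks. The titled RBPJ list held 0.540 times as many peaks (95% interval 0.531 to 0.549, exact binomial) and covered 17.3 Mb against 31.2 Mb. Peaks with a deposited −log10 q of at least 10 numbered 5313 in the KO list and 5379 in the titled RBPJ list, a ratio of 1.012. With a fold of at least 5 the ratio was 1.26. The numbers were thus nearly equal at the former threshold, and the direction of the difference turned at the latter.

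Reads piled up at each summit were recovered from the deposited fold and −log10 p, which fix them under the Poisson model of the peak caller. Whole reads came out for 100% of peaks in both lists, within 0.1% of the −log10 p. The median summit held 15 reads in the KO list and 17 in the titled RBPJ list, and the median peak was 605 and 660 bp wide. The deposited fold had a median of 3.88 in the KO list and 5.01 in the titled RBPJ list. The KO list had been scored against a control with 3.17 reads per library read, the titled RBPJ list against one with 0.812. By these values the control of the KO list was 5.49 times as deep as that of the titled RBPJ list, while the titled RBPJ library itself had 0.711 times the reads of the KO library. In the titled RBPJ list 21.1% of peaks sat at the lowest background of the list, against 11.7% in the KO list. The wild-type library had a control depth of 2.84 per library read and the titled RBPJK175R library of 1.46.

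Of the KO peaks, 26.5% (95% interval 26.1 to 27.0, Clopper-Pearson) overlapped the titled RBPJ list, and 49.6% (48.9 to 50.2) of titled RBPJ peaks overlapped the KO list. The shared DNA came to 8.17 Mb, which was 26.2% of the length of the KO list and 47.4% of that of the titled RBPJ list. Strength separated shared from unshared peaks. Among KO peaks with 10 to 14 reads at the summit 9.36% were shared, among those with 20 to 29 reads 43.3%, among those with 50 to 99 reads 95.3%, and among the 688 with at least 100 reads 98.8%. In the titled RBPJ list the shares in the same classes were 20.9%, 65.5%, 93.97% and, for 870 peaks, 99.7%. Strong sites were thus nearly all present in both libraries, and most peaks of fewer than 20 reads were present in 1 of them.

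**Figure D1:**
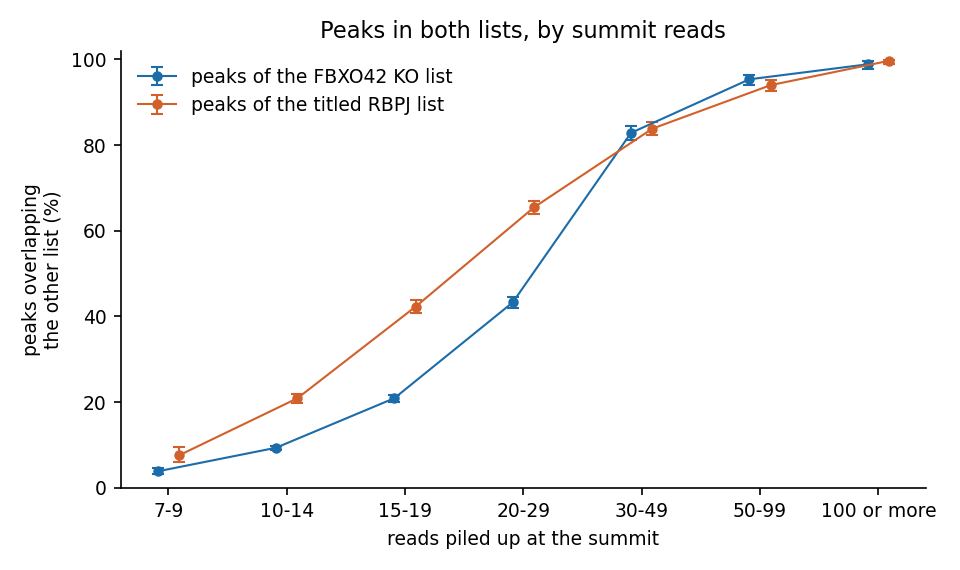
Share of peaks that overlapped the other list (vertical axis, %) by the number of reads at the summit (horizontal axis), for the FBXO42 KO list and the titled RBPJ list; bars are 95% Clopper-Pearson intervals. In both lists the share climbed from below 10% at 7 to 9 reads to above 98% at 100 reads or more.

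Ranking by fold gave a less even picture than ranking by reads. In the titled RBPJ list the lowest decile of fold was shared in 51.8% of cases, more than the third decile at 33.5%, and the highest decile in 87.3%. Peaks of the lowest decile had a median of 17 reads over a background of 4, those of the third 13 reads over 1.78, so a low fold there went with a high background. In the KO list the lowest decile was shared in 18.004% of cases and the highest in 85.4%.

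Of the shared peaks, 8777 met exactly 1 peak of the other list. Their summits lay a median of 144 bp apart, with a middle range of 50 to 327 bp, and 61.0% lay within 200 bp. Summit reads had medians of 24 in the KO list and 26 in the titled RBPJ list. Scaled by the lowest background of each list, the titled RBPJ summit was higher by a median of 0.46 on the log2 scale (SD 0.58 over peaks, 5th to 95th percentile −0.40 to 1.45), and it was higher in 80.5% of these peaks. Scaled to library reads, which were derived from the same backgrounds, the median was 0.59. Scaled instead to the gene-start peaks the lists shared, it was −0.064. That scaling sets the median of those peaks to 0, so a value near 0 follows from it and it cannot decide the direction. The direction of this difference was thus seen only under scalings that rest on the lowest background. Spearman's rho across these peaks was 0.78 for summit reads, 0.40 for the fold and 0.42 for the background. Peaks of 1 library share its depth and control, so these are descriptions across peaks, and the libraries ordered their shared sites more alike by reads than by fold.

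Shared peaks lay at gene starts more often than unshared ones. A gene start was taken as 1 kb on both sides of the annotated start of a protein-coding gene, or of either gene end for the 4162 of 19974 genes without a promoter window. Gene starts held 48.6% of shared and 10.1% of unshared KO peaks, and 48.3% of shared and 19.1% of unshared titled RBPJ peaks. Read the other way, 63.6% of the KO peaks at gene starts were shared, against 16.6% of those within genes and 17.9% of those between genes. For the titled RBPJ list these shares were 71.3%, 40.01% and 36.6%. Shared peaks were wider, with medians of 1016.5 bp against 538 bp in the KO list and 905 bp against 537 bp in the titled RBPJ list. At genes with a stranded start the summit lay a median of 43.5 bp before the start in the KO list (6112 genes) and 95.5 bp before it in the titled RBPJ list (5918 genes).

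Of the 19974 genes, 7618 (38.1%) had a gene-start peak in the KO list, 7281 (36.5%) in the titled RBPJ list, 5515 (27.6%) in both, 2103 (10.5%) in the KO list only, 1766 (8.84%) in the titled RBPJ list only and 10590 (53.0%) in neither. In 5095 of the 5515 genes the strongest gene-start peaks of both lists overlapped. By genes, the lists were thus close in length although the KO list held many more peaks. Counts of members below are read against these shares, and nothing is called particular to a gene list.

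Of the Notch targets, HES4, HEY1 and HES1 held the most reads in both libraries. HES4 held 296 reads at its summit in the KO list and 309 in the titled RBPJ list. HES1 held 165 and 150, with summits 2 bp apart. HEY1, a repressor gene of the related HEY family, held 269 and 214, and MYC, the gene of a growth-promoting transcription factor, 140 and 130. BHLHE40, a repressor gene linked to the circadian clock, held 93 and 105. The wild-type library was above both at these 5 genes, with 957, 416, 789, 551 and 256 reads, and the titled RBPJK175R library below both, with 111, 45, 49, 44 and 38. These libraries had 1.195 and 0.391 times the reads of the KO library.

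The deposited folds of the same peaks differed more than the reads. At HES4 the fold was 44.4 in the KO list and 11.5 in the titled RBPJ list, over a deposited background of 5.69 and 21.0. At HEY1 it was 82.1 and 26.6. HES1 went the other way, with folds of 27.4 and 40.9. A ranking of these targets by fold would therefore place HES4 differently in each list, while its reads placed it highest in both.

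In the list of Notch targets, 24 of 36 genes were called at the gene start in the KO list, 22 in the titled RBPJ list and 20 in both, which is 55.6% against 27.6% of all genes. In 16 of these 20 the strongest peaks overlapped. GATA3, HES2, ID3 and IGF1R had separate strongest peaks. ID1, which encodes an inhibitor of basic helix-loop-helix factors, held 54 reads in the KO list and 137 in the titled RBPJ list. SNAI2, the gene of a repressor of epithelial genes, held 26 and 130. Their depth-scaled log2 ratios of titled RBPJ to KO, 1.71 and 2.69, were the highest of the 12 targets with strongest peaks shared 1 to 1, whose median was 0.53, the same as over all 4713 genes with such a pair. NRARP, a feedback inhibitor of Notch, held 34 and 62, and HEY2 held 66 and 96.

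BMI1, a Polycomb gene, HES6, the Deltex gene DTX1 and the cyclin gene CCND1 had a peak in the KO list only, with 22, 21, 13 and 13 reads. SHQ1, a gene of ribonucleoprotein assembly, and CDKN1A, the gene of the cell cycle inhibitor p21, had one in the titled RBPJ list only, with 21 and 23 reads. All 6 held 13 to 23 reads, classes in which 9.36% to 65.5% of peaks were shared. HES5, HIVEP3, TRIB2, IL7R, PTCRA, CD44, DTX4, SOX9, BCL2 and NOTCH3 had none in either list. CCND1 has no stranded start, so a peak at either gene end counted. Its KO peak (chr11:69654311-69654685) lay at the gene end opposite that of its strongest wild-type peak (chr11:69640293-69641707).

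**Figure D2:**
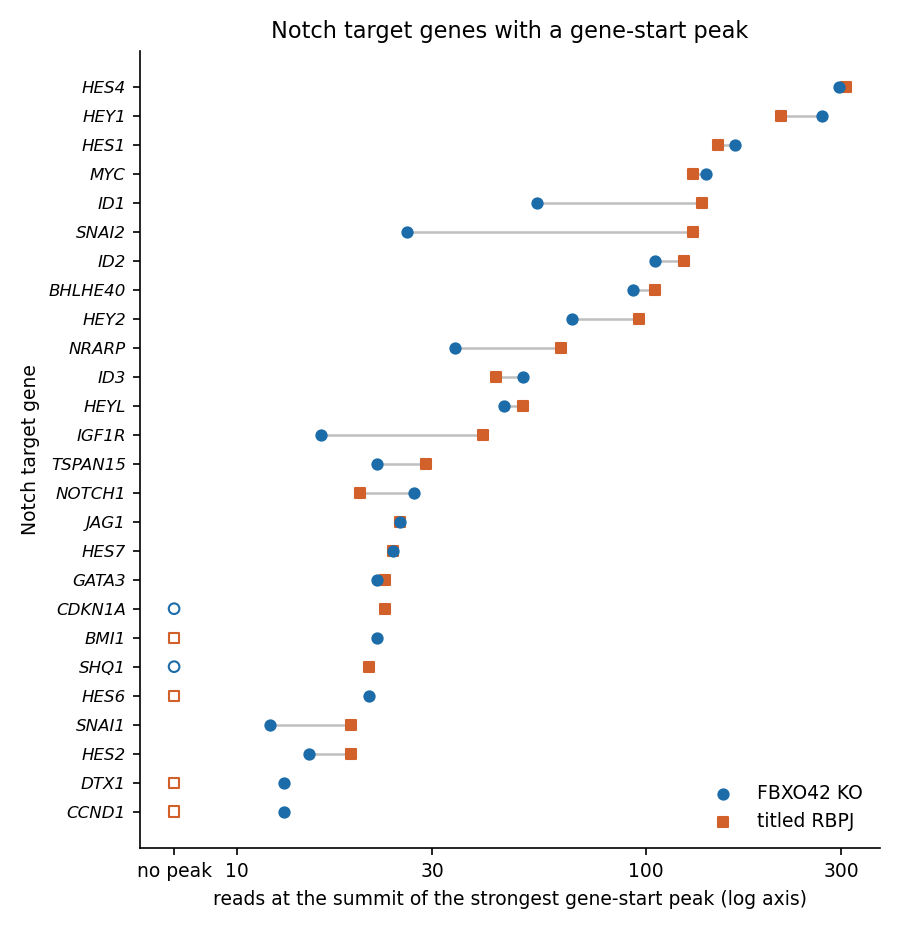
Reads at the summit of the strongest gene-start peak (horizontal axis, log scale) for the 26 Notch target genes with a peak in at least 1 of the lists; circles are the FBXO42 KO library, squares the titled RBPJ library, and open symbols mark no peak. HES4, HEY1, HES1 and MYC stood between 130 and 309 reads in both libraries, while SNAI2 and ID1 were higher in the titled RBPJ library.

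Receptor and ligand genes numbered 5 of 11 in the KO list (45.5%) and 4 in the titled RBPJ list (36.4%), near the 38.1% and 36.5% of all genes. NOTCH1 held 27 reads in the KO list and 20 in the titled RBPJ list, and the ligand gene JAG1 held 25 in each. The ligand-like gene DLK2 held 14 and 27. DLL3 had peaks of 19 reads in each list that did not overlap. DLK1 was called in the KO list only, with 17 reads, and 6 of the 11 members, among them NOTCH2 and DLL4, had no peak in either list.

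Genes that process Notch or its receptors numbered 14 of 24 in the KO list (58.3%) and 9 in the titled RBPJ list (37.5%). Over all genes these shares were 38.1% and 36.5%. Both lists held 8, or 33.3% against 27.6% of all genes. PSENEN, a gamma-secretase subunit gene, was the strongest with 201 and 300 reads, followed by the ubiquitin ligase gene MIB2 with 149 and 177. The protease gene ADAM17 held 55 and 63. ADAM10, the nicastrin gene NCSTN, APH1A, NUMB and NUMBL, which encode an antagonist of Notch and its relative, and the fucose-modifying gene MFNG were in the KO list only, with 18 to 37 reads. PSEN2, a catalytic subunit gene of gamma-secretase, was in the titled RBPJ list only, with 17 reads. Of all genes, 10.5% were in the KO list only and 8.84% in the titled RBPJ list only. Among 10 coactivator genes 5 were in both lists, 50% against 27.6% of all genes. MAML1 held 73 and 48 reads, MAML3 61 and 82, EP300 56 and 47, CDK8 42 and 23, and CREBBP 15 and 11. CCNC was in the KO list only and SNW1 in the titled RBPJ list only.

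Corepressor genes of RBPJ included some of the strongest shared sites. SPEN held 625 reads in the KO list and 646 in the titled RBPJ list, SIN3A 542 and 765, and TLE4 485 and 508 with summits 0 bp apart. At TLE4 the fold was 66.4 against 8.27, and at SPEN 130.7 against 35.04. Reads that were nearly equal before scaling for depth thus again carried unequal folds. KDM1A, a histone demethylase gene, was lower in the titled RBPJ list, with 34 and 9 reads, and CTBP2 with 46 and 21, with summits 392 and 605 bp apart. Of 25 members, 15 were in both lists, 60% against 27.6% of all genes. RCOR1 and RBBP8NL were in the KO list only and HDAC2 in the titled RBPJ list only.

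FBXO42, the gene targeted by the knockout, had a gene-start peak of 39 reads in the KO list and 38 in the titled RBPJ list. A peak list gives no transcript or protein level and so does not check the knockout. Of 14 SCF ubiquitin ligase genes 8 were in both lists, 57.1% against 27.6% of all genes. These were led by CAND1, an exchange factor of cullin ligases, with 187 and 161 reads, BTRC with 159 and 146 and RBX1 with 138 and 138. UBE2N and UBE2V2, which encode the enzyme pair that builds K63-linked ubiquitin chains, and COPS5 were in the titled RBPJ list only, with 24, 11 and 30 reads. Of all genes, 8.84% were in the titled RBPJ list only.

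RBPJ had no peak in either list at the annotated start used here, chr4:26163458. Only that start was used, so whether the peaks further along lie at other starts of the gene was not examined. Beyond it the lists differed. A peak at the following position was in both, with 216 reads in the KO list (chr4:26318872-26321065) and 198 in the titled RBPJ list (chr4:26318706-26321231). A peak at chr4:26429891-26431010 with 211241 reads and one at chr4:26424338-26424743 with 99 reads were in the KO list and not in the titled RBPJ list. The larger was also called in the wild-type and titled RBPJK175R lists, with 79022 and 252672 reads, and in the last of these the background was 198491. A list omits a site where the control is as high as the library, so no pileup is known for the titled RBPJ library at these 2 sites, and the source of the reads was not tested.

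Other gene lists gave counts on both sides. Proteasome genes numbered 17 of 31 in the KO list and 21 in the titled RBPJ list, and PSMB5, PSMD1, PSMB6 and PSMA7 led the 7 in the titled RBPJ list only, with folds of 8.99, 8.15, 6.85 and 4.13. PSMD4, PSMD7 and PSMB7 were in the KO list only. Cell cycle genes numbered 23 of 30 and 19. The replication licensing gene CDT1, CDC20, CCND3 and CCND1 led the 7 in the KO list only, CCND1 by the gene-end peak given above. BUB1, CDK6 and CCNA2 were in the titled RBPJ list only. For chromatin remodellers the counts were 27 of 32 and 23, with the cohesin gene RAD21, SUZ12, EP400 and CHD4 leading the 6 in the KO list only and BPTF and INO80 in the titled RBPJ list only. Of 16 housekeeping genes 11 and 12 were called, with RPLP0 in the KO list only and GUSB and SDHA in the titled RBPJ list only. In these lists, which cover common promoters, 45.2% to 65.6% of members were in both, above the 27.6% of all genes. Called shares were 54.8% to 84.4% in the KO list and 63.3% to 75% in the titled RBPJ list, against 38.1% and 36.5% of all genes. Of all genes, 10.5% were in the KO list only and 8.84% in the titled RBPJ list only.

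Among genes of particular tissues, those of kidney and of the HEK293 line numbered 7 of 19 in the KO list (36.8%) and 6 in the titled RBPJ list (31.6%), near the 38.1% and 36.5% of all genes. SIX2, a transcription factor gene of nephron progenitors, held 123 and 118 reads, and the intermediate filament gene VIM 65 and 97. EPCAM was among those in the KO list only and the neurofilament gene NEFL in the titled RBPJ list only. T cell genes numbered 3 of 22 (13.6%) and 4 (18.2%), below the shares of all genes, with LCK in the KO list only and LEF1 and BCL11B in the titled RBPJ list only, and neuronal genes 2 of 12 (16.7%) in each, with SYP and SYT1 in 1 list only. All T cell receptor complex genes of the list, CD3D, CD3E, CD3G and CD247, had no peak in either list.

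The gene-start peaks with the highest lower fold of both lists were at genes other than the Notch targets. GSK3A held 787 reads in the KO list and 1268 in the titled RBPJ list, with folds of 107.7 and 114.5 and summits 1 bp apart. A peak between CDCA3, a cell division gene, and USP5, a deubiquitinase gene, held 1145 and 1592 reads. AMOT, a regulator of the Hippo pathway, held 408 and 475, PCF11, a factor of transcription termination, 525 and 580, and a peak between NUDCD1 and ENY2 held 629 and 466. EIF2S3, ENOX2 and PWWP2A completed the 10 genes with the highest lower fold, with 192 to 318 reads in the KO list and 384 to 418 in the titled RBPJ list. All 10 genes also had gene-start peaks in the wild-type and titled RBPJK175R lists, where GSK3A held 1739 and 454 reads.

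Among shared gene-start peaks with at least 50 reads in either list and summits within 200 bp, 1825 genes qualified for a comparison of levels, and the median of the depth-scaled log2 ratio of titled RBPJ to KO was 0.61 (SD 0.53, 5th to 95th percentile −0.25 to 1.51). The highest were CA5B with 18 and 95 reads, SNAI2, TCEANC with 66 and 312, AP1S2 with 23 and 105, PGAP1 with 22 and 84 and MED14 with 26 and 98. CA5B, TCEANC, AP1S2 and MED14, of which the last encodes a Mediator subunit, lie on the X chromosome. CA5B, SNAI2, AP1S2, PGAP1 and MED14 reached 50 reads in the titled RBPJ list only, the list where they were higher. Their ranks follow in part from this rule, so nothing is drawn from where these genes lie. The lowest were UPF3B, a gene of nonsense-mediated decay, with 200 and 76 reads, a peak shared by TOR1AIP1 and LOC139427322 with 127 and 52, ZNF517 with 67 and 28, and a peak shared by UBE2D4 and URGCP with 89 and 38. The peaks at ZNF517 and at UBE2D4 and URGCP likewise reached 50 reads in the KO list only. Per chromosome, the median of this ratio over all peaks shared 1 to 1 ran from 0.31 to 0.78 and was highest on X.

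Gene-start peaks present in 1 list only were weaker but not all weak. In the KO list the highest folds without an overlap included those at CARM1, a protein arginine methyltransferase gene, with 103 reads and a fold of 21.7, CAPN10 with 99 reads and 19.7, a peak between CCHCR1 and TCF19 with 42 reads and 16.3, TRIOBP, LRP1B, CAMKK2 and UXT, the last with a fold of 13.9. The CARM1 peak also lies near an end of C19orf38, which had another peak in both lists. All of these peaks were also in the wild-type list, and those at CAPN10, CCHCR1 and TCF19, TRIOBP and CAMKK2 were in the titled RBPJK175R list too. In the titled RBPJ list the highest included those at ZNF383 with 69 reads and a fold of 28.0, SULF1, PHF20 with 63 reads and 21.3, CPA5, CCDC28A, RBL1 with 43 reads and 17.3, KATNAL1, UTP20 and TNFRSF19. The KO list had a separate peak of 14 reads at the start of PHF20. These 9 peaks were all in the wild-type list, and 8 were in the titled RBPJK175R list, with PHF20 as the exception. The strongest unshared sites were therefore mostly sites that another RBPJ library held.

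For unshared peaks as a whole this did not hold. Of 27093 unshared KO peaks, 72.1% were in neither other RBPJ list, 19.7% in the wild-type list alone, 4.88% in the titled RBPJK175R list alone and 3.23% in both. Of 10045 unshared titled RBPJ peaks, 56.0% were in neither, 18.4% in the wild-type list alone, 14.01% in the titled RBPJK175R list alone and 11.5% in both. Of the shared peaks, 79.98% were in the wild-type list and, counted over the KO list, 62.8% in the titled RBPJK175R list. The Jurkat wild-type ATAC list overlapped 62.1% of shared KO peaks, 8.98% of unshared KO peaks and 25.4% of unshared titled RBPJ peaks. Jurkat is another cell type, so these shares describe sites open in that line.

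Which lists resembled each other depended on the ranking. Among the strongest 5000 peaks by fold, 46.0% of those of the KO list overlapped those of the titled RBPJ list. The same share was 62.8% for the KO and wild-type lists, which differ in genotype label, and 57.2% for the titled RBPJ and titled RBPJK175R lists, which share the FBXO42 KO label and differ in the form of RBPJ named. By fold, the KO and titled RBPJ lists thus overlapped less than either of these pairs. Ranked by summit reads, an order chosen after the values were seen, the shares were 70.2%, 77.4% and 70.6%. Of the strongest titled RBPJ peaks, 77.2% overlapped those of the wild-type list. Counted over the wild-type list, the shares were 75.2% with the KO list and 74.6% with the titled RBPJ list. By reads, the KO and titled RBPJ lists thus overlapped about as much as the titled RBPJ and titled RBPJK175R lists. The weakest of these 5000 peaks held 27 reads in the KO list, 29 in the titled RBPJ list and 14 in the titled RBPJK175R list. The pairs were therefore not cut at like numbers of reads. The KO and wild-type lists had controls of nearly equal depth, 1.07 for wild type over KO, and the titled RBPJK175R control had about the depth of the titled RBPJ one, since the KO control was 5.53 times as deep as the former and 5.49 times as deep as the latter.

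The number of peaks differed unevenly along the genome. The ratio of titled RBPJ to KO peaks ran from 0.314 on chromosome 1 (2110 against 6718 peaks) and 0.321 on chromosome 22 to 0.937 on chromosome 18 and 1.24 on chromosome 3 (842 against 678), and was below 1 on 22 of 23 chromosomes. Its SD over chromosomes was 0.48 on the log2 scale. The SD was also 0.46 between the KO and wild-type lists and 0.48 between the KO and titled RBPJK175R lists, and it was lower between the titled RBPJ list and the wild-type list, 0.28, and the titled RBPJK175R list, 0.12. The KO list was thus the one whose distribution over chromosomes stood apart from the other 3. Chromosome 1 held 18.2% of KO peaks, 20.2% of unshared and 12.7% of shared ones, and 10.6% to 12.04% of the peaks of the other RBPJ lists. Across the 23 chromosomes the ratio had a Spearman's rho of −0.46 with the number of protein-coding genes per Mb. With the other lists over the KO list, rho was −0.50 for wild type and −0.46 for titled RBPJK175R, so it was not particular to the titled RBPJ list. At gene starts the ratio of titled RBPJ to KO peaks ran closer to 1, with an SD of 0.35 against 0.52 elsewhere.

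**Figure D3:**
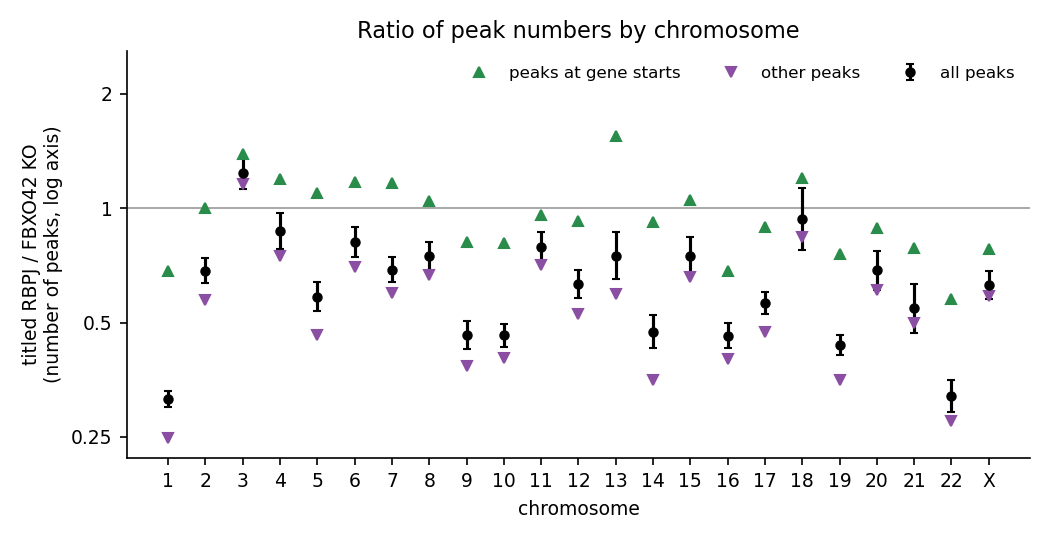
Number of titled RBPJ peaks over number of FBXO42 KO peaks (vertical axis, log scale) on each chromosome (horizontal axis); black points with 95% exact binomial intervals are all peaks, upward triangles peaks at gene starts and downward triangles other peaks. Chromosome 3 was the only one above 1 for all peaks, and chromosomes 1 and 22 were lowest.

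In windows of 2 Mb, selected after their values were seen, the largest deficits of the titled RBPJ list were all on chromosome 1. The window chr1:30000001-32000000, with SDC3 among its genes, held 224 KO and 30 titled RBPJ peaks, beside 173 wild-type and 48 titled RBPJK175R peaks. The largest excess was at chr13:112000001-114000000, which holds CUL4A, LAMP1 and TFDP1, with 2 KO and 36 titled RBPJ peaks, beside 4 wild-type and 34 titled RBPJK175R peaks. Over chr13:108000001-114000000 the titled RBPJ list held 52 peaks with a median of 14.5 reads, 18 of which were in the titled RBPJK175R list and 3 in the KO list. In that region the libraries with a form of RBPJ in a title without FBXO42 had many peaks and the other pair few. The source of this difference was not tested.

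Of the 6 motifs searched, 5 had overlapping 95% intervals between the promoters of genes called in the KO list only and in the titled RBPJ list only, and GCATGCGC did not. These intervals count genes, which can share a peak, within 1 library per arm, so their overlap is no test between the libraries. GCATGCGC was also picked out of 6 motifs, and no difference is read from it. Motifs were searched on both strands of the 300-base windows of 15812 genes, and a match is a description of letters, not of a site. TGGGAA was in 22.7% of all windows, in 26.1% of those of genes called in both lists, 21.1% for the KO list only, 20.3% for the titled RBPJ list only and 21.5% for neither. GTGGGAA, which contains TGGGAA, was in 5.99%, 7.22%, 5.80%, 5.32% and 5.48%. Among genes with peaks shared 1 to 1, the 395 with the highest lower fold had TGGGAA in 41.0% (95% interval 36.1 to 46.0) and GTGGGAA in 12.2% (9.10 to 15.8) of windows, against 25.02% and 6.78% of the other 3553. The RBPJ core was thus more frequent in the promoter windows of the strongest shared sites and close to the share of all promoters in genes of 1 list only.

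ATTGG, the CCAAT box read on the other strand, was likewise more frequent in the windows of the strongest shared sites, with 36.3% of all windows, 42.6% for both lists, 33.1% and 33.6% for either list alone, and 54.7% for these 395 genes. The GC-rich SP/KLF box GGGCGG was in 75.7% of windows for both lists, 70.7% and 70.4% for either alone and 44.7% for neither, and in 74.4% for the 395 genes. The ETS core CCGGAA was in 31.0%, 27.9%, 29.2% and 16.3%, and the NRF1 motif GCATGCGC in 5.86%, 4.19% (95% interval 3.27 to 5.28), 6.58% (5.35 to 7.995) and 2.998%. GC content had medians of 66.0% for both lists, 66.7% and 65.7% for either alone and 58.3% for neither. Of the 3163 windows with the lowest GC content, up to 51.3%, 11.1% had a KO peak and 11.03% a titled RBPJ peak. Of the 3163 with the highest, from 72% upward, 48.2% and 44.9% had one. Among the latter 467 genes were in the KO list only and 364 in the titled RBPJ list only, and among the former 109 and 107.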

How the data were processed

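CUT&Tag libraries of RBPJ in HEK293T cells were compared through the peak lists the authors deposited, 1 list per library, with 1 library per group. Per the submitters' processing notes, the tools included MACS2, Bowtie2, deepTools and Trim Galore, and the build was hg38. Their versions and settings and the controls were not stated in the labels. No pooling is stated. Each deposited row gives a peak's position, a deposited score, the authors' fold, which is a ratio of pileup to local background at the summit, the deposited −log10 p and −log10 q (of a p-value and a q-value), and the deposited summit offset. These values belong to the peak and were used to describe and rank peaks within a list.

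Peaks on chromosomes 1 to 22 and X were used, 1-based on hg38. Overlap of at least 1 bp counted as shared. Summit reads and background were solved from fold and −log10 p, with the treatment scaled by 0.81202 in the titled RBPJ list, where without scaling 5.62% of peaks gave whole reads. Fragment lengths behind the library ratios assumed a local window of 1 kb. Recovery and overlap were checked on simulated data. Gene positions and promoter sequences came from RefSeq (GRCh38.p14). No genome sequence was used here, so motifs were searched in promoter windows only, and exons were not assigned. Genes without a stranded start were taken at either end, and overlapping or paired genes can share a peak. Intervals are exact binomial at 95%. No test was run, since there was 1 library per arm. Named genes were those with the highest lower fold in both lists, the highest fold in 1 list, the highest and lowest depth-scaled ratio, and members of 14 gene lists. Some genes these rules name, and 1 of the lists, are not reported here. The members, gene lists and rules were chosen with earlier results of these data known. Software was Python 3.11.15, numpy 2.4.6, pandas 2.3.3, scipy 1.17.1, matplotlib 3.10.9 and bedtools v2.31.1. Alternatives were thresholds of q and fold, equal list length, other overlap rules, other gene-start windows and other scalings.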

Additional observations from a re-analysis of the deposited data

Results flagged for a closer look

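Peaks on sequences other than chromosomes 1 to 22 and X were left out of the comparison and are given here because they lie outside the main measurement, with no control value to set them against. The FBXO42 KO list held 132 such peaks, 75 on alternate sequences, 54 on unplaced or unlocalised sequences, 3 on the mitochondrial genome and 0 on chromosome Y, and 38 of them overlapped the titled RBPJ list. The titled RBPJ list held 79, of which 25 were on alternate sequences, 53 on unplaced or unlocalised sequences, 0 on the mitochondrial genome and 1 on chromosome Y, and 37 overlapped the KO list.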

How the results depend on the processing

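The ratio of titled RBPJ to KO peak numbers, 0.540, was 0.769 with a −log10 q of at least 5. At 10 it was 1.012, nearly equal numbers although counted as reversed below, and with a fold of at least 5 it reversed to 1.26. The stricter thresholds removed more KO than titled RBPJ peaks. The ratio was 0.527 without chromosome 3 and 1.00 by construction at equal list length. Over the same settings (−log10 q of 5, of 10, fold of 5, equal length), the shared part of KO peaks moved from 26.5% to 40.8%, 60.9%, 45.4% and 36.4%, the shared part of titled RBPJ peaks from 49.6% to 53.6%, 60.7%, 36.6% and 37.5%, and the gene-start share of KO peaks from 20.3% to 37.4%, 61.8%, 44.0% and 26.2%. The gene-start share of titled RBPJ peaks moved from 33.6% to 47.3%, 61.2% and 42.6% at the first 3 settings. Genes in both lists fell from 5515 to 2798 at a −log10 q of 10 and to 2721 with a fold of 5. Reciprocal overlap of 50% gave 15.2% and 28.2% shared, and summits within 200 bp gave 15.7% and 29.03%. Windows of 500 bp and 2 kb gave gene-start shares of 17.3% and 25.7% in the KO list and 30.2% and 38.7% in the titled RBPJ list. With at least 20 depth-scaled summit reads, chosen after seeing the data, the ratio reversed to 1.53, the shares shared were 77.4% and 52.5%, the gene-start shares 63.7% and 56.5%, and 3644 genes were in both. The depth-scaled difference of shared peaks, 0.46, was reversed to −0.064 by scaling to shared gene-start peaks. That scaling sets their median to 0, so a value near 0 follows from it. The difference was 0.59 scaled to library reads, also chosen after seeing the data. In all, 33 values moved, 4 reversed and 18 did neither, where a share or ratio of peak numbers stayed within its 95% interval, a gene count within 1.5 times and the depth-scaled difference within 1 SD over shared peaks. With 1 library per arm no replicate could be left out. No paired analysis was possible because each group has 1 library. Most peaks under 20 reads were called in 1 of these libraries, and the part of depth in this was not tested. No reads or signal between peaks were analysed here, so a site missing from a list has no known level.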
